A study of Homo sapiens with 8 samples.

Results

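The genes described here are the expressed LINC genes, that is, long intergenic noncoding RNA genes whose symbol in the gene table is a serial number of the form LINC00324, although a few are also known by another name. They were taken by their symbol from the gene table of SK-UT-1, an established line of human uterine leiomyosarcoma, a malignant tumour of uterine smooth muscle. A LINC gene was kept when its CPM, its count scaled to the total of its library, was over 1 in at least 4 of the 8 libraries. Of 60282 genes listed, 2121 were LINC genes, and 123 of these passed. Members were thus chosen by their measured CPM in both groups together, that is, by level and not by the difference between the groups. The cells had been kept for 48 h in medium with DMSO, the vehicle (n = 4 libraries), or with 5 µM TP-472 (n = 4 libraries), a small molecule that the labels call an inhibitor of BRD9 and BRD7. Both groups are the same unmodified line, so a single tumour stands behind every value. The study's methods speak of biological replicates for its experiments in general, but the labels do not say whether these libraries came from separate cultures. If they did not, p-values measure only the spread between these libraries, which may be technical.

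Long intergenic noncoding RNAs are transcribed by RNA polymerase II, capped, usually spliced and polyadenylated like messenger RNAs, but have no long open reading frame. Some act in the nucleus on chromatin or on the gene next to them, others bind proteins or microRNAs in the cytoplasm, and most have no known function. They are on the whole less abundant and more specific to a cell type than messenger RNAs. BRD9 is a bromodomain protein that reads acetylated lysines and belongs to the non-canonical BAF chromatin remodelling complex, and BRD7 is its close relative in the PBAF complex. The comparison asks how the RNAs of these little-studied genes differed between cells with and without the inhibitor.

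The total count was 34433596, 36634184, 32574716 and 36407850 in the vehicle libraries, in order of their replicate number, and 38545695, 37674588, 37427131 and 36246466 in those of TP-472. LINC genes took little of it. The 123 genes together held 0.083%, 0.0635%, 0.0954% and 0.0682% of the counts in the vehicle libraries and 0.0718%, 0.0659%, 0.0667% and 0.0823% in the TP-472 libraries, so that the groups overlapped. Levels below are CPM scaled by edgeR's TMM method, which also corrects for library composition, and are given as mean ± SD over 4 libraries.

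Vehicle replicate 3 stood apart from the other vehicle libraries. Its median Spearman correlation with its own group over the 123 LINC genes was 0.88, against 0.938, 0.951 and 0.938 for the other vehicle libraries and 0.948 to 0.952 for the TP-472 libraries, and over all 14073 genes that passed the same filter it was 0.914, against 0.988 to 0.989 for the other vehicle libraries. The genes with a GC content of the longest transcript at or above the median of the LINC genes (62 genes) lay a median of 0.55 above the mean of the other vehicle libraries on the log2 scale in this library, and the 61 genes below that median lay at −0.17. The first principal component of the LINC genes held 68.1% of their variance and separated the groups, with vehicle libraries from −7.17 to −2.92 and TP-472 libraries from 4.41 to 5.08. The second held 17.9%, with vehicle replicate 3 at −4.89 and the other libraries from −1.78 to 3.43. The library was kept, and the main counts and some of the named values that it moved are given with and without it.

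The label of the line was set beside markers of its tissue. Of 11 smooth muscle markers 7 passed the filter, among them CALD1, the actin-binding caldesmon, at 200 ± 15.3 CPM and ACTA2, smooth muscle actin, at 160 ± 16.7 CPM in vehicle. The heavy chain gene MYH11, the muscle transcription factor gene MYOCD and the steroid receptor genes ESR1 and PGR were at or near 0 in all 8 libraries. The markers together came to 439, 479, 524 and 481 CPM in the vehicle libraries and to 380, 378, 373 and 371 CPM with TP-472. None of 5 leukocyte and 4 endothelial markers passed the filter. The leukocyte markers, nearly all of it CD14, summed to 0.471 to 0.724 CPM in vehicle and 0.880 to 1.21 CPM with TP-472, with PTPRC and CD3E at or near 0, and the endothelial markers to 0.0554 to 0.144 and 0.414 to 0.581 CPM. The 6 epithelial markers together came to 18.2 to 24.0 CPM in vehicle and 21.1 to 27.9 CPM with TP-472. Of these, 3 passed the filter, while EPCAM and CDH1 stayed under 1 CPM. KRT18, a keratin and the most abundant of them with TP-472, rose from 7.39 ± 0.871 to 15.6 ± 1.47 CPM and KRT19 fell from 8.88 ± 1.78 to 4.93 ± 1.15 CPM. Of the 7 smooth muscle markers tested 3 fell (42.9%, against 14.9% of all tested genes), or 4 without vehicle replicate 3. Desmin (DES), a muscle filament protein, was at 3.25 ± 0.20 CPM in vehicle and 0.630 ± 0.169 CPM with TP-472, and LMOD1 had a log2 fold change of −1.84. Both passed the filter through vehicle libraries alone, so the filter fixed their direction, and the share of 42.9% tests nothing. TAGLN fell by 0.67 on the log2 scale, while CALD1 (−0.06) and CNN1 (0.13) were not called. The part of these marker differences in the values of the LINC genes was not tested. BRD9 was at 80.1 ± 23.1 CPM in vehicle and 71.5 ± 3.17 CPM with TP-472 (log2 fold change −0.16, edgeR adjusted p = 0.486). Vehicle replicate 3 held 114.5 CPM of BRD9, and without that library its log2 fold change was 0.06. BRD7 was at 56.2 ± 0.583 and 60.8 ± 2.65 CPM (0.11, adjusted p = 0.324).

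Most LINC genes were silent or close to it in these cells. No library had a count for 1097 of the 2121 LINC genes, 901 had counts but failed the filter, and the 123 that passed were 5.8% of the listed LINC genes, against 23.3% of all genes. Of the 123, 82 were over 1 CPM in all 8 libraries, 41 in 4 to 7 and 12 in exactly 4. The gene just inside the threshold was LINC02438, with counts of 39, 37, 57 and 28 in vehicle and 20, 24, 31 and 37 with TP-472 and a fourth-highest CPM of 1.01. Just outside it was LINC01137, whose fourth-highest CPM was 0.989. Passing genes were mostly weak, with a median of 2.32 CPM over the 8 libraries against 24.9 CPM for all tested genes. A mean under 5 CPM was found for 67.5% of them, against 21.3% of all tested genes, and 8 had a mean over 20 CPM.

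In GENCODE release 29 on GRCh38 all 123 had a position, on 22 chromosomes, with 17 on chromosome 1 and 10 on chromosome X. The annotation called 93 of them lincRNA, 14 processed transcripts, 5 antisense and 2 bidirectional promoter RNAs, while 7 were transcribed pseudogenes of the unprocessed (6) or unitary (1) kind. The remaining 2, LINC00672 and LINC02693 (there named C17orf51), were still typed as protein-coding in that release. Their exons covered a median of 3287 bases in 4 blocks, against 5174 bases for tested protein-coding genes. Exonic bases were shared with a protein-coding gene on the same strand in 9 and on the opposite strand in 10. Because salmon, the authors' counting tool, divides reads that fit several transcripts, a count well off a whole number can come from reads shared with another gene. Counts were whole in all 8 libraries for 52 of the 123, or 42.3%, against 14.3% of all tested genes, and 10 were not whole in any library. A tolerance of 0.05 was used here, since sums of rounded transcript values can miss a whole number slightly.

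Compared per kb of exon, the most abundant LINC RNAs over the 8 libraries were LINC02595 at 20.8 CPM per kb, LINC00342 at 13.7, LINC00958 at 9.24, LINC01578 and LINC00578 both at 8.85, and LINC00662 at 6.31. This order pools both groups and differed between them. In vehicle it ran from LINC02595 (24.7 ± 11.9 CPM per kb) over LINC00342 (19.8 ± 9.68), LINC00578 (12.7 ± 1.41), LINC01578 (9.65 ± 2.51) and LINC00958 (6.95 ± 1.19) to LINC00662 (6.49 ± 0.867). With TP-472 it ran from LINC02595 (16.9 ± 4.19) over LINC00958 (11.5 ± 0.748), LINC01578 (8.06 ± 0.362), LINC00342 (7.70 ± 1.85) and LINC00662 (6.12 ± 0.490) to LINC00578 (4.96 ± 0.140), where several genes outside this ranking lay level with it. Neighbours that lay within each other's SD were LINC02595 and LINC00342 and LINC00958 and LINC00662 in vehicle, and LINC01578 and LINC00342 with TP-472. LINC02595 has an exonic length of only 375 bases, and its level was 11.2, 5.55, 14.6 and 5.68 CPM in vehicle and 5.20, 6.29, 5.24 and 8.56 CPM with TP-472. Vehicle replicates 1 and 3 were the high values, the groups overlapped, and the gene did not pass (edgeR adjusted p = 0.22). LINC00662 on chromosome 19 was at 61.1, 48.2, 45.2 and 51.9 CPM in vehicle and at 48.3, 47.3, 45.2 and 54.3 CPM with TP-472, with groups that overlapped and a log2 fold change of −0.08 ± 0.12 (SE). The 2 genes of this ranking called lower, LINC00342 and LINC00578, and LINC00958, called higher, come with the called genes.

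A gene was called when edgeR's quasi-likelihood test gave an adjusted p under 0.05 (Benjamini-Hochberg over all 14073 genes tested) and the fold change was over 1.5. By this rule 49 of the 123 LINC genes changed with TP-472, 39.8% of them, against 26.9% of all tested genes. They went both ways. With TP-472, 26 rose (21.1%, against 12.0% of all tested genes) and 23 fell (18.7%, against 14.9%). The median log2 fold change was 1.12 for those that rose, −1.16 for those that fell and 0.01 for the 123 genes together, against −0.03 for all tested genes. The middle part of the distribution was wider for the LINC genes, with quartiles of −0.59 and 0.59 against −0.47 and 0.35. In bulk RNA, fewer cells that express a gene and less RNA of it per cell cannot be told apart.

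**Figure D1:**
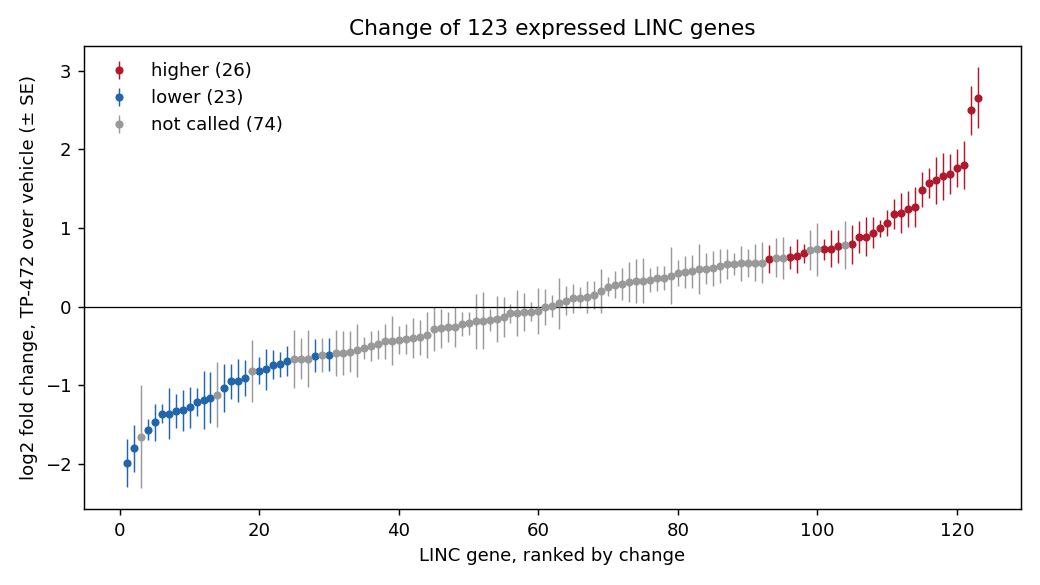
Log2 fold change of TP-472 over vehicle (vertical axis, bars: SE of the edgeR fit) for the 123 expressed LINC genes, ranked by change (horizontal axis), with 26 genes called higher in red, 23 called lower in blue and 74 not called in grey. The called genes fill both ends of the ranking, and the widest bar belongs to LINC01001, which was not called.

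Among the weak genes the share called was close to that of other genes of the same level, and among the stronger ones it was higher. Among all tested genes with a mean under 5 CPM 37.3% were called, and among the 83 LINC genes at that level 33 were, or 39.8%. Of the 40 LINC genes at or above 5 CPM, 16 were called (40.0%), 7 higher and 9 lower, against 24.1% of all tested genes at that level. A gene that passed the filter only through the group where it was high had to differ. This applied to 9 genes, all of them called, and of the 114 with a library over 1 CPM in each group 40 were called (35.1%), 20 in each direction, against 25.5% of all tested genes that met this condition. The groups did not overlap for 56 of the 123 genes, or 45.5%, against 45.4% of all tested genes, 33 of them with TP-472 higher and 23 with vehicle higher. For these the exact two-sided permutation test gave 0.0286, the smallest p that 4 against 4 libraries allow.

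Without vehicle replicate 3, 55 LINC genes were called, 34 higher and 21 lower, against 25.5% of all tested genes called (12.0% higher, 13.4% lower). Both fits called 45 of them, 4 were called only with the library and 10 only without it. Lost were LINC00173, LINC00174 and LINC00205, lower with all libraries, and LINC01963, higher. LINC00174 (−0.61, or −0.40 without the library) and LINC01963 (0.74, or 0.56) kept an edgeR adjusted p of 0.0272 and 0.0059. Both missed only the fold limit. LINC00173 and LINC00205 stayed at or below −0.58 and −0.56 in every alternative fit. Of 17 alternative fits, however, LINC00173 lost its call in 10, LINC00174 in 11 and LINC01963 in 6. Their calls were thus marginal beyond this library, while LINC00205 lost its call in 1. Among the 10 gained, those with the largest changes in the fit of all libraries were LINC01145 (0.78, or 1.03 without the library), LINC02495 (0.73, or 1.10) and LINC00528 (0.62, or 0.87), with LINC01515 (−0.61, or −0.76) the only gain among the lower genes. LINC01123, outside that ranking and seen after its values, moved from 0.48 to 0.95. The median log2 fold change of the 123 genes moved to 0.11, and 21 genes moved by more than 0.3. Among vehicle libraries, replicate 3 was the highest in 13 of the 23 genes that fell, 7 of the 26 that rose and 40 of the 74 not called, and 16 of the 23 that fell had a smaller fold change without it. Of the 49 calls, 32 held in each of the 8 fits that left out 1 library, 19 higher and 13 lower.

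**Figure D2:**
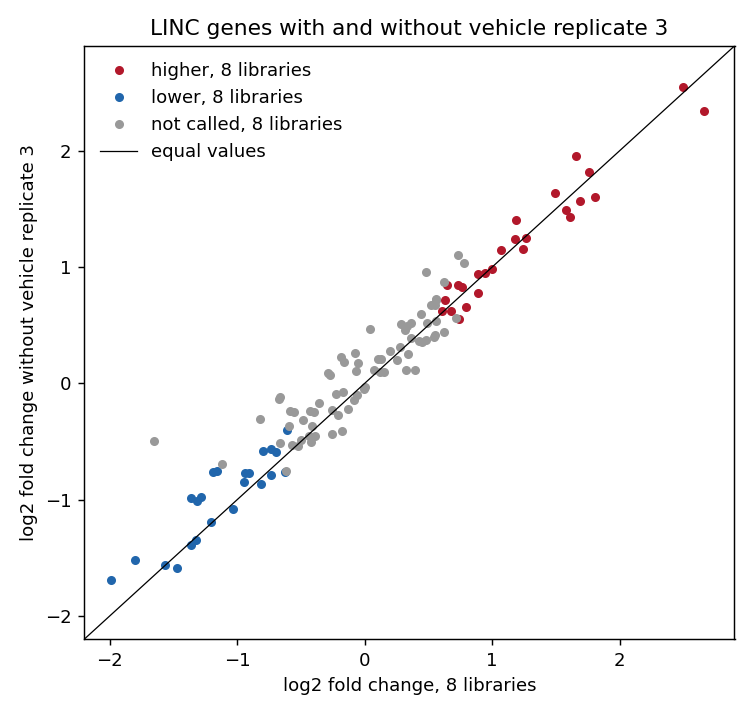
Log2 fold change of each of the 123 LINC genes with all 8 libraries (horizontal axis) and without vehicle replicate 3 (vertical axis), coloured by the call with all libraries, with a line of equal values. Most blue points lie above the line, and LINC01001 moved farthest, from −1.66 to −0.50.

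The values given next are the 8 largest changes in each direction among called genes whose libraries averaged 2 CPM or more and whose groups were fully separated. LINC01783, a gene of 3 exon blocks (chr1:16533886-16536172, minus strand), was at 0.610, 1.01, 1.04 and 1.07 CPM in vehicle and at 2.67, 3.83, 3.58 and 2.59 CPM with TP-472. It rose 3.39-fold, from 0.931 ± 0.216 to 3.17 ± 0.632 CPM (log2 fold change 1.76 ± 0.24 SE, edgeR adjusted p = 0.000999). Every TP-472 library stood above every vehicle library by a wide gap. None of its counts was whole in any library, so part of its reads may be shared with another gene.

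LINC00324, next to the gene of the mitotic kinase AURKB on chromosome 17 and studied in several cancers, was at 0.720, 1.29, 0.637 and 1.60 CPM in vehicle and at 3.81, 3.21, 2.80 and 3.20 CPM with TP-472. It rose 3.05-fold (log2 fold change 1.61 ± 0.30 SE, edgeR adjusted p = 0.00405), with whole counts in all 8 libraries. AURKB, whose start lies 13443 bases away on the same strand, was at 66.5 ± 6.16 CPM in vehicle and 57.4 ± 3.71 CPM with TP-472 and was not called (−0.21, adjusted p = 0.139). LINC01311 (chr22:19171395-19172839, plus strand, 1 exon block, typed antisense) went from 1.58, 1.81, 1.30 and 1.63 CPM to 4.17, 5.89, 4.86 and 3.96 CPM, a 2.98-fold rise with no overlap (log2 fold change 1.58 ± 0.19, adjusted p = 0.000583). LINC01348 on chromosome 1 rose 2.81-fold, from 1.16 ± 0.281 to 3.28 ± 0.540 CPM.

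At a higher level, LINC00910 on chromosome 17, LINC01128 on chromosome 1 and LINC02693 on chromosome 17 rose 2.27-fold, 2.09-fold and 1.99-fold. LINC00910 was at 5.15, 4.02, 5.01 and 3.74 CPM in vehicle and at 9.81, 9.30, 8.32 and 13.2 CPM with TP-472 (log2 fold change 1.18 ± 0.19 SE, edgeR adjusted p = 0.00204). LINC01128 went from 11.9, 8.28, 11.7 and 8.38 CPM to 20.6, 19.4, 19.6 and 24.8 CPM (1.07 ± 0.17, adjusted p = 0.00192). The closest spacing within groups was that of LINC02693, with 23.0, 21.6, 21.2 and 21.4 CPM in vehicle and 44.7, 39.7, 40.1 and 49.1 CPM with TP-472 (1.00 ± 0.11, adjusted p = 0.000345). In all of these the lowest TP-472 library was well above the highest vehicle library. LINC01089, also known as LIMT and described as an RNA that EGF lowers in mammary cells, had the smallest gap of the 8, from 1.94, 1.09, 1.82 and 1.57 CPM to 2.36, 2.79, 2.58 and 3.22 CPM (0.77 ± 0.21, adjusted p = 0.0232). It shares exonic bases with RHOF on the same strand and lost its call without TP-472 replicate 2 (adjusted p = 0.0609), 3 (0.0519) or 4 (0.0639).

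Among the genes that fell, LINC02614 (chr3:125827238-125916384, minus strand) had the largest change, from 7.32, 4.31, 10.4 and 4.58 CPM to 1.84, 1.44, 1.94 and 1.48 CPM (log2 fold change −1.99 ± 0.30 SE, edgeR adjusted p = 0.00166). Vehicle replicate 3 was its highest library, and without it the log2 fold change was −1.69. LINC00654 had the smallest adjusted p of the 16, 9.86e-05. It was at 19.4, 17.0, 18.6 and 19.2 CPM in vehicle and at 6.86, 6.60, 6.44 and 5.21 CPM with TP-472, a log2 fold change of −1.56 with or without vehicle replicate 3. Vehicle libraries were close to each other and far from the TP-472 libraries. Its counts were not whole in any library, so part of its reads may be shared.

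LINC00578, a gene that spreads 6 exon blocks over chr3:177441921-177752305 on the plus strand, was at 18.2, 14.3, 14.7 and 15.7 CPM in vehicle and at 6.16, 6.34, 5.97 and 5.997 CPM with TP-472. It fell 2.57-fold (log2 fold change −1.36 ± 0.12 SE, edgeR adjusted p = 0.000158), with very little spread in the treated cells. The next LINC gene on the same strand, LINC02015, begins 64560 bases past its end and went the other way, from 1.06 ± 0.224 to 2.03 ± 0.146 CPM (0.94 ± 0.20, adjusted p = 0.00706). LINC01270 on chromosome 20, whose nearest coding gene is that of the transcription factor CEBPB, fell from 4.35 ± 0.422 to 1.88 ± 0.332 CPM (−1.21 ± 0.18, adjusted p = 0.00147). These 3 genes changed by nearly the same amount without vehicle replicate 3, at −1.39, 0.95 and −1.19.

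Other decreases leaned on vehicle replicate 3 or on single libraries. LINC00342 (chr2:95807118-95816215, minus strand) was at 53.3, 32.2, 87.0 and 34.5 CPM in vehicle and at 22.3, 15.8, 16.5 and 26.0 CPM with TP-472. Its counts were not whole in any library, so part of its reads may be shared with another gene. No library crossed over, but the vehicle values spread widely, and the log2 fold change of −1.36 ± 0.33 SE (edgeR adjusted p = 0.0124) was −0.99 without vehicle replicate 3. LINC02175 on chromosome 16 went from −1.28 to −0.98 in the same way and LINC00265 on chromosome 7 from −1.16 to −0.75. LINC00265 also lost its call when vehicle replicate 1 or TP-472 replicate 1, 2 or 3 was left out, with an adjusted p of 0.0507 to 0.0691. LINC01176 on chromosome 7, at 4.74, 2.30, 2.75 and 2.56 CPM in vehicle and 1.92, 1.10, 1.08 and 1.93 CPM with TP-472, lost it without vehicle replicate 1 (log2 fold change −0.75, adjusted p = 0.0723), its highest library, and without TP-472 replicate 2 or 3 (both 0.0845).

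**Figure D3:**
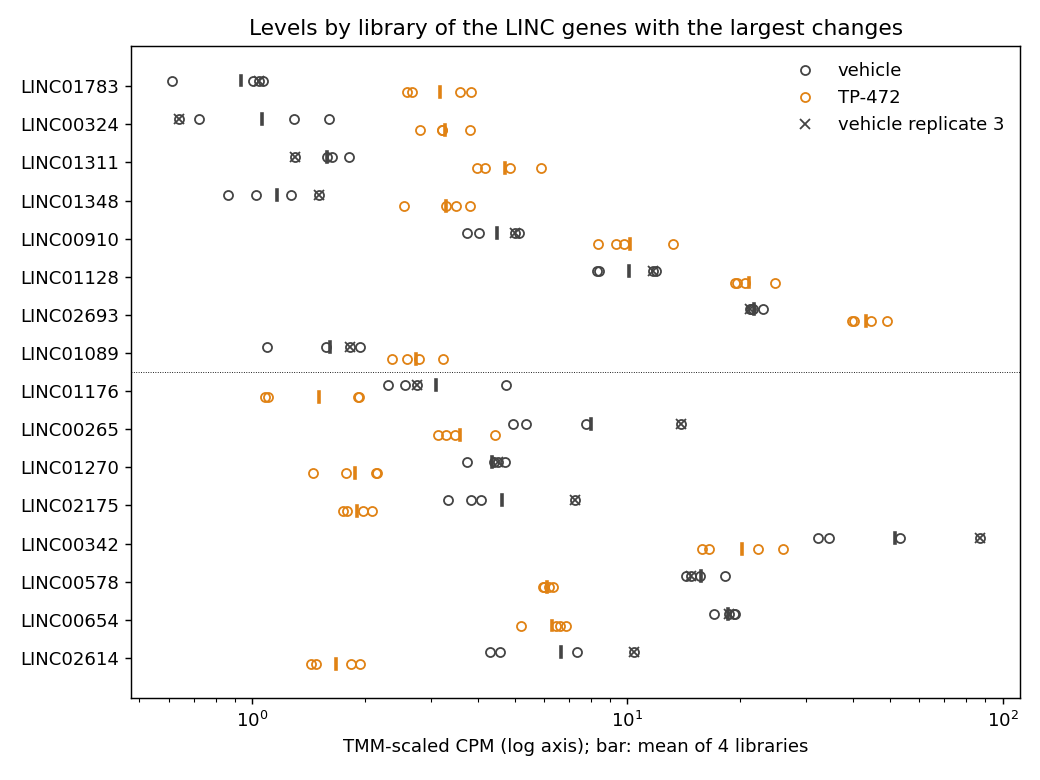
TMM-scaled CPM (horizontal log axis) of 16 LINC genes in each vehicle library (grey circles, replicate 3 crossed) and each TP-472 library (orange circles), with a bar at the mean of 4 libraries, and genes called higher above the dotted line. The groups do not overlap in any row, and among the genes that fell the crossed circle is the rightmost vehicle value for LINC02614, LINC00342, LINC02175 and LINC00265.

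Some of the largest fold changes belonged to the genes that passed the filter through one group only, which were picked out after their values were seen. Each was over 1 CPM in all 4 libraries of that group and in none of the other, so the filter fixed both its direction and the separation of its groups, and its values are a description. In vehicle LINC02535 (chr6:85387219-85390186, minus strand) was at 0.222, 0.259, 0.0579 and 0.422 CPM, and with TP-472 at 1.73, 1.58, 1.39 and 1.45 CPM. LINC02432 on chromosome 4 was at 0.443, 0.115, 0.318 and 0.281 CPM and then at 1.61, 1.75, 1.67 and 1.61 CPM. LINC00702 on chromosome 10 went from 0.582, 0.690, 0.347 and 0.927 CPM to 1.68, 2.001, 2.41 and 2.83 CPM. The fitted changes of these 3 were 6.32-fold, 5.66-fold and 3.49-fold. LINC01186, LINC00511 and LINC00518 also passed through TP-472 libraries alone. In the other direction LINC00893, LINC01232 and LINC01814 passed through vehicle libraries alone, with LINC01814 on chromosome 2 at 2.33, 1.75, 3.33 and 1.29 CPM in vehicle and at 0.595, 0.620, 0.555 and 0.713 CPM with TP-472. LINC00893 was highest in vehicle replicate 3 and lost its call without any 1 of the TP-472 libraries (adjusted p = 0.0599 to 0.0859).

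**Figure D4:**
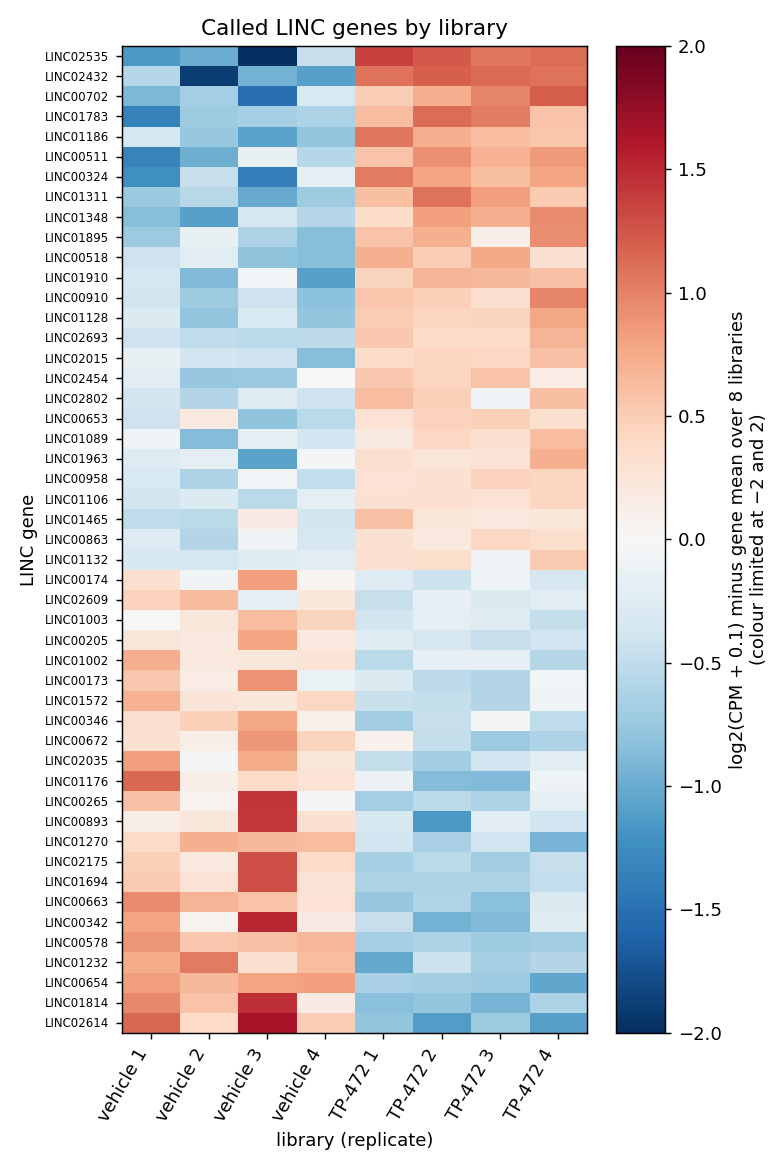
Level of the 49 called LINC genes (rows, ordered by log2 fold change) in the 8 libraries (columns), as log2(CPM + 0.1) minus the mean of the gene over the libraries, in red above and blue below that mean. Red fills the TP-472 columns for the 26 genes that rose and the vehicle columns for the 23 that fell, and vehicle replicate 3 holds several of the deepest reds of the latter.

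LINC01001 had the largest change that was not called, an observation made after its values were seen. It was at 5.29, 3.22, 21.1 and 2.14 CPM in vehicle and at 2.67, 2.40, 1.94 and 3.04 CPM with TP-472. The log2 fold change of −1.66 ± 0.65 (SE, edgeR adjusted p = 0.0754) was −0.50 without vehicle replicate 3. Of 17 alternatives 4 called it, among them DESeq2 (adjusted p = 0.0165) and edgeR without vehicle replicate 2 (0.0469) or 4 (0.0312). The groups overlapped, and 1 library held most of the difference.

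The start regions of these genes can be read in the RefSeq promoter set on GRCh38.p14, which spans 250 bases before and 50 bases after a start. It held 74 of the 123 genes, 17 of those that rose, 14 of those that fell and 43 not called. The RefSeq start lay within 1 kb of the GENCODE gene start for 62 of them and farther for 12, by up to 135265 bases, so those windows belong to another start of the gene. For the genes shown it was at most 17 bases. Shown are 2 genes that rose (LINC00324, LINC00702) and 2 that fell (LINC00654, LINC00578), so that their letters can be compared. Capitals mark matches on either strand to 6 short motifs, namely AP-1 (TGANTCA), the interferon-stimulated response element (by name), the cAMP response element (TGACGTCA), the E-box (CACGTG), the CCAAT box (CCAAT, read as ATTGG on the other strand) and the TATA box (TATAAA, read as TTTATA on the other strand), none of which contains another. The windows are chr17:8223994-8224293, minus strand, for LINC00324, chr10:4243863-4244162, minus strand, for LINC00702, chr20:5504547-5504846, minus strand, for LINC00654, and chr3:177441671-177441970, plus strand, for LINC00578, each printed along its own strand.
LINC00324: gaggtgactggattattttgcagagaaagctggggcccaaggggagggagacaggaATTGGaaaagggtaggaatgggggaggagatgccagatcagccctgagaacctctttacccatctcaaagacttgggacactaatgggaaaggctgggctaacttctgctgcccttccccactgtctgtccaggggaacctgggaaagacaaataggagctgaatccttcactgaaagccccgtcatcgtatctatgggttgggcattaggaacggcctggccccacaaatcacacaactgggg
LINC00702: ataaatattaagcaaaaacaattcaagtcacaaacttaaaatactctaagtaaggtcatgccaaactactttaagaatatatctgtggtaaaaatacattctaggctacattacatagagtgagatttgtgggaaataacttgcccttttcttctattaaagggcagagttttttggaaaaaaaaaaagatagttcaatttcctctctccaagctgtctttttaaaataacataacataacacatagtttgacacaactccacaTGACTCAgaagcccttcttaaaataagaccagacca
LINC00654: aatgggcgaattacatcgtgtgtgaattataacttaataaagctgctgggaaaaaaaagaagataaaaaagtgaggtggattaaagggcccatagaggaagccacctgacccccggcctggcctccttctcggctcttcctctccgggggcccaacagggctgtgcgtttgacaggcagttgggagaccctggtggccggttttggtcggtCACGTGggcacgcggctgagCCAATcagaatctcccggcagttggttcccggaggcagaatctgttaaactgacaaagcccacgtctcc
LINC00578: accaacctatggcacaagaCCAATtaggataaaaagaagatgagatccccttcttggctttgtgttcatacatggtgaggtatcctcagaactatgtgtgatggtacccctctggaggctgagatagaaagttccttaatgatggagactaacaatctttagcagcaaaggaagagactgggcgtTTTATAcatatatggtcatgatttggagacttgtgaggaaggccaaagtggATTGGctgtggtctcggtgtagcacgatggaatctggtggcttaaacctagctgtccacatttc

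LINC00324 had an inverted CCAAT box that begins 194 bases before the start, and LINC00702 an AP-1 match that begins 14 bases after it. LINC00654 had an E-box 39 bases and a CCAAT box 19 bases before the start. LINC00578 had an inverted TATA box 65 bases before its start and CCAAT boxes 231 and 14 bases before it. Over the 74 promoters the AP-1 letters were in 10 (13.5%, against 7.71% of all 35116 promoters), 4 of them of genes that rose, 1 of a gene that fell and 5 of genes not called. Of these 10 windows 4 were among the distant ones, and the 6 others belonged to 3 genes that rose and 3 not called. The E-box was in 6 (8.11%, against 7.26%), the cAMP response element in 3 (4.05%, against 1.85%), the CCAAT box in 32 (43.2%, against 34.6%), the TATA box in 13 (17.6%, against 11.5%), and the interferon-stimulated element in none (against 3.57%). The median GC content was 55.0% for promoters of genes that rose, 59.6% for those that fell, 59.0% for those not called and 58.7% for all promoters. These matches describe the letters of the windows, and binding was not measured.

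LINC genes with a published link to tumours were followed as a list of 36, of which 33 were in the table and 16 were tested. Of these, 6 rose and 1 fell, and without vehicle replicate 3 it was 7 and 1, the seventh being LINC00707. Of the 6, LINC00511 and LINC00518 had passed the filter through TP-472 libraries alone. Among the 14 without them 4 rose and 1 fell, or 5 and 1 without vehicle replicate 3, beside 25.5% called of all tested genes that had a library over 1 CPM in each group. As a median, the 16 had a log2 fold change of 0.37 and the 14 one of 0.19, against −0.03 for all tested genes. LINC00958, also named BLACAT2 and known from bladder cancer, was the most abundant of them to change, from 20.6, 16.6, 24.5 and 18.2 CPM in vehicle to 31.1, 31.4, 35.4 and 34.5 CPM with TP-472 (log2 fold change 0.73 ± 0.14 SE, edgeR adjusted p = 0.00456). Its groups did not overlap. LINC00518, measured beside PRAME in a skin test for melanoma, was at 0.645 ± 0.159 CPM in vehicle and 1.53 ± 0.233 CPM with TP-472. LINC00511, linked to growth of breast and lung cancers, was at 0.406 ± 0.180 and 1.29 ± 0.147 CPM. The direction of these last 2 was fixed by the filter, so they are given as values only. LINC00324, LINC01128 and LINC01089, described above, complete the genes that rose. LINC00346 on chromosome 13 fell from 1.64, 1.81, 2.26 and 1.38 CPM to 0.751, 0.902, 1.25 and 0.872 CPM (−0.91 ± 0.23, adjusted p = 0.0163), with no overlap, but passed narrowly, since its adjusted p was 0.0523 without TP-472 replicate 1 and 0.0501 without replicate 2. Of the list, 9 tested genes were not called, among them LINC00665, LINC00963 and LINC01234.

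Long noncoding genes that have a name of their own moved in both directions too. Of 33 listed, 22 were tested, and 5 rose and 4 fell (40.9%, against 26.9% of all tested genes). Without vehicle replicate 3 it was 5 and 5. LUCAT1, a stress-induced RNA first seen in smokers' airways, was at 5.74, 6.21, 6.37 and 7.39 CPM in vehicle and at 30.2, 30.2, 28.5 and 37.0 CPM with TP-472 (log2 fold change 2.29 ± 0.14 SE, edgeR adjusted p = 2.89e-05). No LINC gene over 2 CPM changed as much. CYTOR (formerly LINC00152) went from 21.9 ± 1.57 to 40.3 ± 0.791 CPM, DANCR, an inhibitor of differentiation, from 17.7 ± 4.71 to 33.4 ± 4.23 CPM, and HOTAIRM1, of the HOXA cluster, from 2.63 ± 0.396 to 4.86 ± 0.0933 CPM. NEAT1, the scaffold of nuclear paraspeckles, fell from 487 ± 146 to 262 ± 59.1 CPM and KCNQ1OT1, the antisense RNA of an imprinted domain, from 607 ± 196 to 346 ± 83.7 CPM. In both the groups overlapped, since the highest TP-472 library (341 CPM for NEAT1, 465 CPM for KCNQ1OT1) lay above the lowest vehicle library (340 and 417 CPM). TINCR and CASC15 fell as well, with log2 fold changes of −1.03 (−0.68 without vehicle replicate 3) and −0.99 (−1.03). MALAT1, of nuclear speckles, was at 6048 ± 1721 and 5841 ± 1530 CPM and NORAD, which binds Pumilio proteins, at 434 ± 69.4 and 478 ± 15.2 CPM, and neither was called.

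Of 14 host genes of microRNAs, all tested, 3 rose and 5 fell, with or without vehicle replicate 3 (57.1%, against 26.9% of all tested genes, 12.0% higher and 14.9% lower). Among the 3 is MIR155HG, which passed the filter through TP-472 libraries alone, so that its direction was fixed by the filter. Over the lists of noncoding genes together, fewer were called without some of the TP-472 libraries, as given below under processing. MIR22HG was at 2.99, 2.85, 3.47 and 3.51 CPM in vehicle and at 10.2, 9.84, 9.79 and 9.01 CPM with TP-472 (log2 fold change 1.60 ± 0.13 SE, edgeR adjusted p = 0.000106). MIR17HG (0.90) also rose, and MIR155HG had a log2 fold change of 1.91, given as a value only. MIR99AHG fell from 82.4, 66.8, 45.4 and 68.8 CPM to 23.2, 21.1, 22.0 and 25.9 CPM (−1.51 ± 0.18, adjusted p = 0.000485). MIRLET7BHG, whose vehicle replicate 3 held 56.9 CPM against 11.9 to 17.5 CPM in the other vehicle libraries, had a log2 fold change of −1.84, or −1.02 without that library. MIR29B2CHG (−1.07), MIR503HG (−1.11) and MIR193BHG (−1.21) fell too, at −0.82, −0.86 and −0.75 without vehicle replicate 3. Of 5 noncoding genes tied to the interferon response 4 were tested, and all 4 were called, against the same 26.9%. MIR155HG, with its direction fixed by the filter, is among these 4. NRAV (0.61), a negative regulator of antiviral genes, and MIR155HG rose, and PSMB8-AS1 (−0.68) and BISPR (−0.72), which lies beside the antiviral gene BST2, fell.

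Since some lincRNAs act on the gene beside them, each LINC gene was set beside the protein-coding gene with the nearest start. That gene was tested for 95 of the 123. It was called for 22 of the 95 (23.2%), 9 higher and 13 lower, against 26.5% of all tested protein-coding genes, and since some LINC genes share a neighbour these are 20 different genes. The sign of the change was the same in 41 of the 95 pairs. Over the pairs the Pearson correlation of the log2 fold changes was −0.04 and the Spearman correlation −0.06, with both values of a pair taken from the same 8 libraries. Among pairs with starts up to 1 kb apart, the neighbour was tested in 16 and called in 2, and in no such pair were both genes called.

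Both genes were called in 7 pairs, with the same sign in 5. Beside the called LINC genes 18.4% of the tested neighbours were called, against 26.5% of tested protein-coding genes. In 3 of the 5 pairs the LINC gene (LINC02535, LINC02432 or LINC01186) had passed the filter through TP-472 libraries alone, so that its direction was fixed by the filter. LINC02535 rose with NT5E, the ecto-nucleotidase CD73, which went from 97.6 ± 16.8 to 188 ± 3.22 CPM (log2 fold change 0.94, edgeR adjusted p = 0.00123) and starts 59398 bases away. LINC02432 rose with ZNF330 (0.83) and LINC01186 with KRBOX4 (0.60, or 0.56 and under the fold limit without vehicle replicate 3). LINC01003 fell with KMT2C (−0.67), a histone methyltransferase, and LINC00342 with ANKRD36C (−0.69). LINC01311 rose while SLC25A1, the mitochondrial citrate carrier, fell from 57.3 ± 15.3 to 31.5 ± 2.20 CPM (−0.86, adjusted p = 0.00614). LINC02015 rose while KCNMB2, a subunit of a calcium-activated potassium channel, fell from 4.79, 5.75, 3.21 and 5.00 CPM to 0.984, 1.07, 0.943 and 0.661 CPM (−2.35, adjusted p = 0.00026), at a distance of 456067 bases. The groups of KCNMB2 did not overlap.

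Of the other genes of the 16 with the largest changes, LINC02693, LINC02614 and LINC01176 had a neighbour under the filter. The neighbours that follow were not called, namely TBL1XR1 (0.05) by LINC00578, GPCPD1 (−0.19) by LINC00654, CEBPB (0.58) by LINC01270, RALA (0.50) by LINC00265, LCMT1 (0.28) by LINC02175, TOMM20 (0.36) by LINC01348, SAMD11 (−0.49) by LINC01128 and NBPF1 (−0.29) by LINC01783. SETD1B, a histone methyltransferase gene that starts 274 bases from LINC01089 on the other strand, was at 30.2, 13.7, 108 and 15.01 CPM in vehicle and at 13.4, 10.6, 8.60 and 15.4 CPM with TP-472 (log2 fold change −1.79, edgeR adjusted p = 0.0523). Vehicle replicate 3 was far above its other libraries, the groups overlapped, and leaving that library out gave −0.71 on the log2 scale (adjusted p = 0.0557). Without it SAMD11 was at 0.10, and CEBPB was called higher (0.87, adjusted p = 0.000147).

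**Figure D5:**
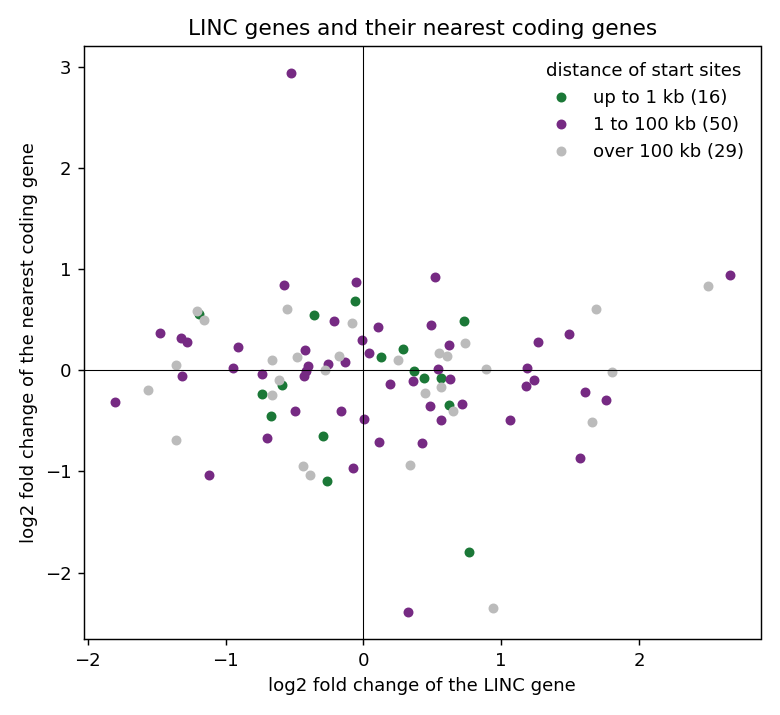
Log2 fold change of the nearest protein-coding gene (vertical axis) against that of the LINC gene (horizontal axis) for the 95 pairs with both genes tested, coloured by the distance between their starts. The points scatter around both zero lines, with Pearson r of −0.04.

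LINC01578, one of the most abundant LINC RNAs per kb, is also known as CHASERR and lies just ahead of the chromatin remodeller gene CHD2 on chromosome 15. It was at 59.3, 57.3, 31.8 and 59.7 CPM in vehicle and at 40.9, 43.3, 44.1 and 45.6 CPM with TP-472. Vehicle replicate 3 was below every TP-472 library and the other vehicle libraries were above them all. The log2 fold change was −0.26 ± 0.19 (SE, edgeR adjusted p = 0.305) with it and −0.44 (adjusted p = 0.000209) without it, under the fold limit either way. Its nearest coding start in the annotation is that of AC013394.1, 706 bases away, which shares exonic bases with it on the same strand and fell from 26.3 ± 5.73 to 12.3 ± 1.77 CPM (−1.10 ± 0.19, adjusted p = 0.00274). CHD2, not part of the pairs and looked up because of its position, went from 333 ± 17.4 to 197 ± 15.3 CPM (−0.75 ± 0.10, adjusted p = 0.000925).

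Structure was set beside the calls as a description. The median exonic length was 2822 bases for LINC genes that rose, 4334 bases for those that fell and 3300 bases for those not called. Median GC content of the longest transcript was 48.6%, 48.7% and 46.4% in that order, against 48.4% for tested protein-coding genes. The median distance to the nearest coding start was 92161, 52064 and 43902 bases. These medians are descriptions of lists of 26, 23 and 74 genes and were not tested.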

How the data were processed

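RNA of 8 SK-UT-1 samples was sequenced as strand-specific libraries, and none was left out. The authors aligned the reads with STAR for quality control, quantified transcripts with salmon (1.4.0 per the submitters' processing notes) and summed them by gene with tximport on GENCODE. The deposited values are these estimated counts, neither normalized nor filtered.

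Here the estimated counts were rounded, genes with over 1 CPM in at least 4 libraries were kept (14073 genes), libraries were scaled by TMM, and TP-472 was compared with vehicle by the quasi-likelihood test of edgeR 4.0.16 in R 4.3.3, with no covariate and Benjamini-Hochberg adjustment over all genes tested. The limits of a call follow the study's methods. The study names no test for these data. Fold changes of the fit use edgeR's default prior count. A prior count of 2 was used for the log2 CPM behind the correlations of libraries and the principal components. Single values were compared by an exact permutation test over the 70 assignments of libraries. The members and lists were chosen with earlier results of these data known. The named genes are, among called members averaging 2 CPM or more with fully separated groups, the 8 largest changes in each direction, then the 6 most abundant per kb, the called genes of the tumour list, the genes just inside and outside the threshold, the listed genes, the nearest coding genes, and up to 4 members whose call was lost and 4 whose call was gained without a library. Others are said to be chosen after their values were seen. The value of 1 gene that this rule would name is not reported here.

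Positions come from GENCODE release 29, while the authors used a later release, matched by gene identifier without its version. Promoters are RefSeq windows on GRCh38.p14. At 32574716 to 38545695 counts per library, 1 CPM is a small number of reads, so weak genes carry counting error as well as the spread between replicates. No library was a copy of another, since every pair differed by a mean chi-square of 12.8 or more, where copies would come close to 1. As alternatives the fit was repeated with DESeq2 1.42.0, limma-voom (limma 3.58.1), other scalings, filters and thresholds, the replicate number as a block and each library left out in turn. The calculations were tested on simulated data.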

Additional observations from a re-analysis of the deposited data

Results flagged for a closer look

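A library was looked at again where, in a group of 4, its gap to the nearest other library was a larger part of the range of the group than Dixon's critical value allows. In 86 groups of values examined 7 passed this limit, and 4 of the 7 were vehicle replicate 3. Some of these genes had been named because vehicle replicate 3 changed their call, or after their values were seen. The number of flags therefore cannot be set against the 1 in 20 that chance alone gives. In that library LINC01578 was low at 31.8 CPM, and LINC00205 (57.1 CPM), LINC00893 (3.33 CPM) and LINC01001 (21.1 CPM) were high. LINC01783 was low in vehicle replicate 1 at 0.61 CPM, and LINC01963 was high in TP-472 replicate 4 at 13.4 CPM. The number of the 123 LINC genes over 1 CPM was low in vehicle replicate 2, at 102 against 108 to 109 in the other vehicle libraries.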

How the results depend on the processing

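With no filter, 901 further LINC genes entered and only 56 of them were called (6.22%). Under the other filters, given next, the number of LINC genes called followed the number tested and the share moved little. edgeR's filterByExpr called 89 of 255 (48 higher, 41 lower; 34.9%, against 26.6% of all genes), 48 of them among the 123, and a mean of at least 2 CPM left 27 of 71 (13 higher, 14 lower; 38.0%, against 25.4%). At an adjusted p under 0.01 it was 29 (11 lower), with 2144 of all genes called (1061 higher, 1083 lower). DESeq2 called 53, limma-voom 46, RLE and upper-quartile scaling 49 each and library totals 45. The share of all genes called is not given for these fits, so their counts do not set LINC genes against other genes. With 1 library left out in turn, LINC calls ran from 35 to 55 (higher 20 to 34, lower 15 to 24), listed noncoding genes called from 11 to 20, all genes called from 2690 to 4223 (lower 1387 to 2399), and the median log2 fold change of the LINC genes from −0.0244 to 0.114, the highest without vehicle replicate 3. The lowest counts of listed noncoding genes came without TP-472 replicate 2 or 3. LINC00662 ran from −0.141 to 0.0088 and changed sign without vehicle replicate 1. With the replicate number as a block 38 LINC genes were called (21 higher, 17 lower) and 3055 of all genes. The deviations of same-numbered libraries from their group means correlated at −0.055, 0.116, −0.171 and −0.177, and 1 of 8 libraries correlated best with its own number. These values showed no sign of pairing. They cannot exclude it, since vehicle replicate 3 enters the group mean and the labels do not say which libraries were prepared together. Of 39 named LINC genes 24 kept their direction and their side of the threshold under every alternative that gave a value, and of 650 values 593 did so, 46 lost the call, 10 gained it and 1 reversed. Among the 31 named genes that were called, 22 kept both. Many named genes were picked for large changes, so these shares do not stand for all LINC genes. Of all 49 calls, 32 held in every fit that left out 1 library. Weak genes rest on few counts, and beyond the change in genes or libraries entering a fit the cause of a lost call was not tested.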

Other observations

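LINC genes under the filter were outside the comparison. When no filter was set, 901 further LINC genes with a count entered the fit and 56 of them were called, 36 higher and 20 lower with TP-472 (6.22%, against 6.79% of the 19119 genes of any kind that entered in this way, 4.53% higher and 2.26% lower). With edgeR's filterByExpr 132 further LINC genes entered and 41 were called, 22 higher and 19 lower (31.1%, against 25.3% of 3056 genes, 15.2% higher and 10.0% lower). Of the LINC genes not kept, 14 were over 1 CPM in 3 libraries and 61 in 1 to 3 libraries. In vehicle replicate 3, 148 LINC genes of any kind were over 1 CPM, against 127, 110 and 115 in the other vehicle libraries and 113 to 128 with TP-472.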
